A study of Mus musculus with 16 samples.

Results

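Solute carriers are membrane proteins that move amino acids, sugars, nucleosides, metal ions, anions and metabolites across the plasma membrane and the membranes of organelles. They were examined here as the protein-coding genes whose symbol starts with Slc and a digit and that were chosen by their level, 5 or more units in 4 or more of the 16 libraries. This rule took 106 genes, of 221 protein-coding Slc genes and 15895 genes listed in all. Because they were selected on these values, the level of a member is a description, and 3 members carry the Slc name without being carriers (Slc9a3r2, Slc4a1ap and Slc7a6os). At the edge of the rule, 8 members reached 5 in exactly 4 libraries, and the lowest of these 4 values ran from 5.09 in Slc7a6 to 5.95 in Slc10a1. The 5 genes that reached it in 3 libraries had a next value of 4.31 to 4.98 (Slc16a13, Slc25a17, Slc36a1, Slc43a1 and Slc7a7).

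RNA was sequenced from mouse heart cells sorted as negative for CD45 and positive for CD31 and podoplanin, a gate for lymphatic endothelial cells. CD1 mice were operated at postnatal day 1 (P1) or 56 (P56), either with ligation of a coronary artery to cause a myocardial infarction (MI) or as sham controls, and cells were taken 3 days later. Each of the 4 groups (MI or sham, at P1 or P56) had 4 libraries. Neonatal tissue was minced and pooled from 6 ventricles, whereas the adults were males whose hearts were perfused for digestion, so age cannot be told apart from pooling, digestion, surgery and sex. No transgene or deletion is named for any group.

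Lymphatic endothelial cells line the vessels that drain fluid, cells and lipid from the heart. Endothelial cells take up glucose mainly through the carrier encoded by Slc2a1. They use amino acid carriers such as the Slc7a5 and Slc3a2 heterodimer for growth and protein synthesis, and the mitochondrial carriers of the Slc25 family exchange ADP, ATP, phosphate and other metabolites across the inner membrane.

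Total reads per library ran from 17103319 to 43837520, but the largest totals were almost wholly reads of the single gene Uqcrc1. Its share was 98.6% for library 2 of sham P1 (43837520 reads) and 99.8% for library 5 of MI P56 (38575819 reads). Outside Uqcrc1 and mitochondrial ribosomal RNA, these libraries held 321929 and 41346 reads. The 13 libraries that the tests use held 6709566 to 12918569 such reads. In 3 libraries fewer than 10000 genes had a read (sham P1 libraries 1 and 2 and MI P56 library 5), 1 read was worth 0.120, 4.04 and 4.31 units there, and single members reached extreme values, such as Slc20a1 at 11623.5 in sham P1 library 2. In the other 13 libraries 1 read was worth 0.0163 to 0.0362 units. Values and tests below come from these 13 libraries (4 each of MI P1 and sham P56, 3 of MI P56 and 2 of sham P1) unless stated, and 102 of the 106 members also met the rule within them. Slc7a5, Slc7a6 and Slc41a3 (3 of the 13 libraries at 5 or more) and Slc10a1 (2) met it only with low-detection libraries counted. Slc10a1 alone passed through a single group, sham P1, and Slc1a3 passed only with its MI P56 libraries counted. Other members leaned on 1 group or age. In Slc28a2, Slc26a10, Slc25a27 and Slc12a7, for example, only the sham P56 mean was at 5 or more (12.2, 13.9, 9.33 and 7.17). In Slc16a12 only the P56 means were (15.5 in sham and 8.44 after MI). Lower values of these members in the remaining groups were thus partly built into their choice. The table columns are numbered 1, 2, 3 and 5 in each group, and these numbers name the libraries here.

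The sort was checked against marker genes. Of 12 genes of lymphatic identity 11 were listed, their summed value was 1270.4 to 3687 over the 13 libraries, and no listed marker of that list was at 0 in every library of a group. Genes of other cell types were present as well. The 12 cardiomyocyte genes summed to 1292 to 2334 in sham P56, against 150 to 229 in sham P1, 103 to 345 in MI P1 and 325 to 574 in MI P56. The 14 blood endothelial genes summed to 691 to 1081 in sham P56, 245 to 317 in sham P1, 349 to 463 in MI P1 and 283 to 535 in MI P56. The 10 fibroblast genes summed to 3200.5 to 6638 in sham P1, 1860.4 to 5520 in MI P1, 866 to 4065 in sham P56 and 3745 to 8045 in MI P56. The 8 listed of 10 macrophage genes summed to 17.8 to 18.7, 11.2 to 31.8, 6.24 to 10.5 and 18 to 90.9 in the same order of groups. No listed gene of these 4 lists was at 0 in every library of any group. The 7 listed of 8 pericyte and smooth muscle genes summed to 103 to 212, 112 to 288, 449 to 1152 and 208 to 335 in that order. The 6 mesothelial genes summed to 24.8 to 41.7, 51.9 to 91.4, 10.8 to 112 and 13.5 to 36.8. The part of these cells in the differences below was not tested, and in sorted bulk RNA fewer cells of a type and less RNA per cell cannot be told apart.

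The proximal promoters of 4 members are shown because Slc5a3, Slc38a2 and Slc41a1 were lower at P56 in both age comparisons and Slc2a1 was among the few members that differed after MI. Each run is the 250 bases before the RefSeq transcription start (GRCm38.p6), 5′ to 3′ on the gene's strand. Capitals mark matches, on either strand, to GGGCGG (the GC box), to CCAAT (the CCAAT box), to TATAAA (the TATA box) and to TGACG (part of the cAMP response element), and adjoining matches may overlap. The windows are chr16:92058072-92058321 on the plus strand for Slc5a3, chr15:96699729-96699978 on the minus strand for Slc38a2, chr1:131827762-131828011 on the plus strand for Slc41a1 and chr4:119108495-119108744 on the plus strand for Slc2a1.
Slc5a3: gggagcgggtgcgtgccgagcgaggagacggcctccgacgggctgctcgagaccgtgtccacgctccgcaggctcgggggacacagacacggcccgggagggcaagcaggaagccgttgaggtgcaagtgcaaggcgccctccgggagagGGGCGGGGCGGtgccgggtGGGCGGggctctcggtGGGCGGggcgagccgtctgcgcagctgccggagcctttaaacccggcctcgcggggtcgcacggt
Slc38a2: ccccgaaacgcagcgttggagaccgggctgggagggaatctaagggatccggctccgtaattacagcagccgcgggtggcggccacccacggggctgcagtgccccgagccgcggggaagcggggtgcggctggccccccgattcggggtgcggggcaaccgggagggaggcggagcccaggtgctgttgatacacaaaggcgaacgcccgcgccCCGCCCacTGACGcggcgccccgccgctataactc
Slc41a1: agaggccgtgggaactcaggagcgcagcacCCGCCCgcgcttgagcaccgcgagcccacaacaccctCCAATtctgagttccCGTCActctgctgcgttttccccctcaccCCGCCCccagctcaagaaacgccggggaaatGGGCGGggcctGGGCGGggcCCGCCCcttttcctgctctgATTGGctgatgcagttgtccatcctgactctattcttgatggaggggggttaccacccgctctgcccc
Slc2a1: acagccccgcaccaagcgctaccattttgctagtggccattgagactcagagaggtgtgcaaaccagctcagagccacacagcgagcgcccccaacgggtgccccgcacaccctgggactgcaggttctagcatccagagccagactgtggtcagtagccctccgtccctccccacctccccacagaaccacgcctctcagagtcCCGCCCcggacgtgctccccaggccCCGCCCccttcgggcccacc

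GGGCGG occurred 4 times in the window of Slc5a3, once in that of Slc38a2, 5 times in that of Slc41a1 and 2 times in that of Slc2a1. This motif was in 32.7% of the 32817 distinct promoter windows of the reference, which was not limited to expressed or protein-coding genes. It was in 61.8% of the 110 windows of the 80 members that have one. No share was taken over protein-coding genes meeting the level rule, so the members' shares have no like background. CCAAT was in 33.8% of all windows and 31.8% of the members' windows, TATAAA in 12.4% and 8.18%, and TGACG in 17.8% and 27.3%. Of these 4 promoters, TGACG was found in those of Slc38a2 and Slc41a1, CCAAT in that of Slc41a1, and TATAAA in none. These are matches of letters and not measured binding sites.

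Levels were compared as the mean of the 4 group means per kilobase of exons, since longer genes collect more reads. The highest members were mitochondrial, purine and amino acid carriers. Slc25a4, which exchanges ADP for ATP across the inner mitochondrial membrane and is the main isoform of heart muscle, stood first at 25.5 units per kilobase. Slc43a3, a purine nucleobase carrier, followed at 17.5 and Slc38a2, a sodium-coupled carrier of small neutral amino acids, at 16.8. The scaffold protein gene Slc9a3r2 and the mitochondrial phosphate carrier gene Slc25a3 both stood at 13.6, and Slc31a2, a copper transporter of endosomes and lysosomes, at 10.2. At the low end were Slc8a1, the sodium-calcium exchanger that is abundant in cardiomyocytes, at 0.277 and Slc12a7, a potassium-chloride cotransporter, at 0.299 units per kilobase.

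**Figure D1:**
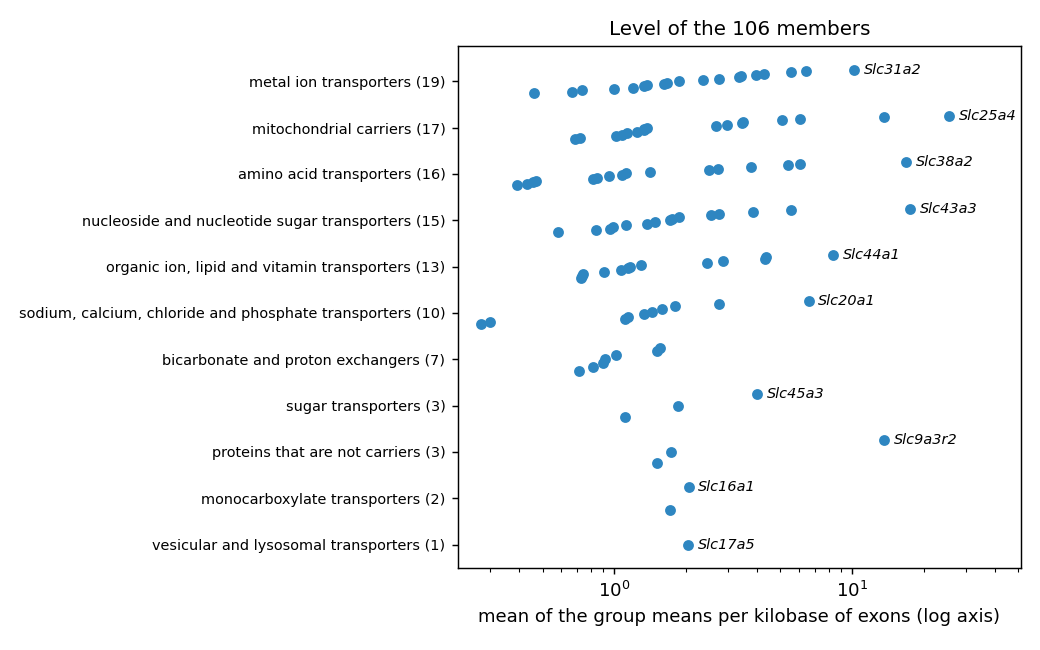
Mean of the 4 group means of the deposited value (13 libraries), per kilobase of exons (log axis), for each of the 106 members, 1 point a gene, by the substance carried, with the number of members in brackets and the highest member of a class named where it reached 2 units. Slc25a4 stands highest at 25.5, followed by Slc43a3 at 17.5 and Slc38a2 at 16.8.

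The levels of most members varied less between groups than those of the few described below. For 26 members the highest group mean was under 1.5 times the lowest, for 39 it was over 2 times and for 12 over 4 times, with a median of 1.86 times. The zinc carrier gene Slc30a7 of the Golgi had the smallest ratio, 1.07, with group means from 25.4 to 27.2. Slc23a2, a vitamin C carrier, had a ratio of 1.08, and Slc25a4 had 1.17, although its sham P56 libraries ran from 36.2 to 121. At the other end stood Slc28a2 at 18.6, Slc7a2 at 16.9, Slc10a1 at 13.8 and Slc7a5 at 11.1. The highest group mean was in sham P1 for 26 members, MI P1 for 23, sham P56 for 28 and MI P56 for 29.

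The first comparison asked how carrier genes differed 3 days after infarction of the adult heart. At P56, 3 members were higher after MI and 1 was lower, and 102 did not pass the test (limma on log2(value + 1), two-sided, Benjamini-Hochberg adjusted p under 0.05 over 13033 genes). The 3 higher members were the amino acid carrier gene Slc7a5, the zinc, iron and manganese importer gene Slc39a14 and the glucose carrier gene Slc2a1, and the lower one was Slc28a2, a sodium-coupled carrier of purine nucleosides. Of all genes tested 2.36% were higher and 1.07% lower, and of the 6974 protein-coding genes that met the same level rule 3.38% and 1.38%, so the members' counts are near the background. The median difference of the members was 0.11 on the log2 scale, beside 0.01 over all genes.

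**Figure D2:**
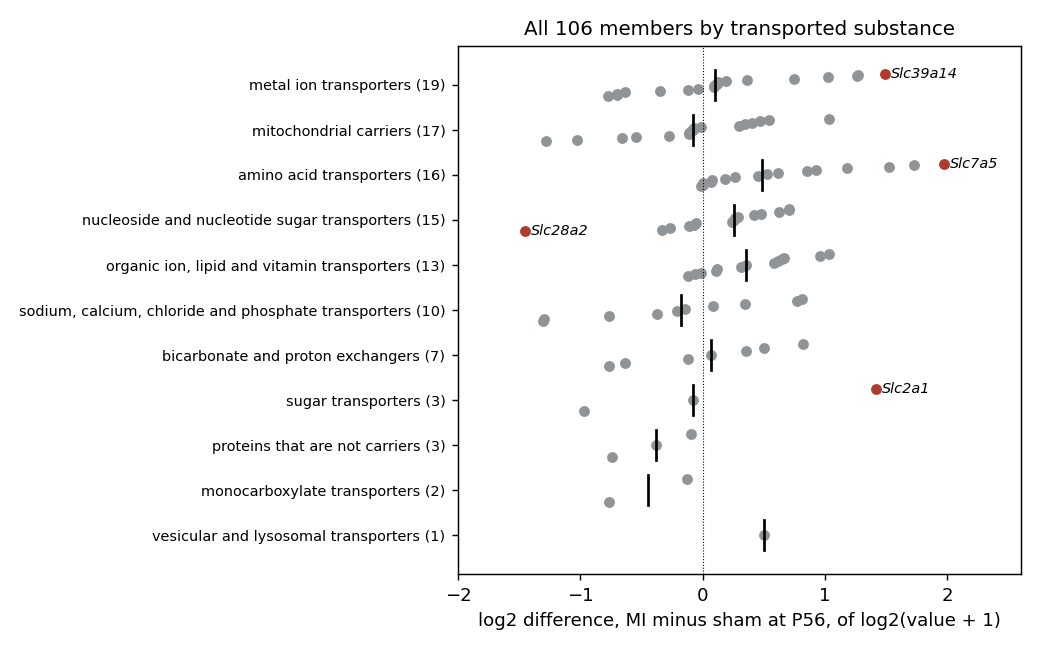
Difference of log2(value + 1) between MI and sham at P56 for the 106 members, 1 point a gene, by the substance carried, with bars at the class medians and the 4 genes with an adjusted p under 0.05 in red. The 16 amino acid carriers sit at or above zero except Slc36a4 (-0.01), and the class median is 0.49.

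Among the amino acid carriers, Slc7a5 (chr8:121881150-121907694), the light chain that exchanges large neutral amino acids, read 0.56, 0, 0.778 and 0.459 in the sham P56 libraries and 3.94, 2.82 and 8.16 in MI P56. The groups did not overlap, and the sham values rest on 0 to 43 reads a library. Slc7a5 reached 5 in only 3 of the 13 libraries and is a member only because a low-detection library was counted. The mean was 11.1 times higher after MI, with a difference of 1.97 ± 0.45 on the log2 scale (SE; limma adjusted p = 0.0171, n = 4 and 3). Slc3a2, the heavy chain with which it pairs, read 14.2 ± 1.1 (SD, n = 4) in sham P56 and 15 ± 0.67 (SD, n = 3) in MI P56 and did not pass. Slc7a5 at P1 read 2.51 and 3.19 in sham and 1.02 to 6.81 in the 4 MI libraries, which overlap. Without MI P56 library 3 its adjusted p was 0.136.

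Slc7a2, a carrier of arginine and other cationic amino acids, read 2.04, 4.71, 12.8 and 7.74 in sham P56 and 15.3, 22.7 and 28.2 in MI P56. These did not overlap, but the difference of 1.73 on the log2 scale had an adjusted p of 0.056 by limma. Slc1a3, a glutamate and aspartate carrier, read 1.32, 4.32, 2.37 and 1.51 in sham and 8.76, 6.99 and 9.07 after MI, a difference of 1.53 that also had an adjusted p of 0.056. But Slc1a3 reached 5 in exactly 4 libraries, among them these MI P56 libraries and no sham P56 library. A higher value after MI was thus partly built into its choice. Slc7a1, the more widely expressed arginine carrier, differed by 0.18 and did not pass. Over the 16 amino acid carriers 1 was called, 15 had a difference above zero on the log2 scale and the median was 0.49. Above zero were also 62 of the 106 members and 6602 of the 13033 genes, and whether the class differs was not tested. As plain group means, Slc38a1 (4.00 and 3.02), Slc6a6 (55.9 and 54.9) and Slc36a4 (16.1 and 15.1) were lower in MI P56 than in sham P56. For the 12 listed genes of the amino acid response driven by the transcription factor Atf4, 9 were tested and none passed in limma, with a median of 1.04. Their differences ran from -0.10 in Ddit3 to 1.32 in Psat1, and Atf4 itself was at 0.07.

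Among metal carriers, Slc39a14 (chr14:70303469-70351425) read 13, 9.83, 20.1 and 11.6 in sham P56 and 38, 44.6 and 34.3 in MI P56. The groups were far apart, at 13.6 ± 4.5 (SD, n = 4) and 39 ± 5.2 (SD, n = 3), a ratio of 2.86. The difference was 1.49 ± 0.27 (SE) with a limma adjusted p of 0.00347, and it kept its call when any 1 of the 13 libraries was left out. The 2 neonatal groups read 8.66 and 13 in sham and 11.5 to 19.4 after MI. Slc39a13, a zinc carrier of the secretory pathway, read 8 to 17 in sham P56 and 31.7, 29 and 26.2 in MI P56, without overlap, with an adjusted p of 0.0504. The iron exporter gene Slc40a1 read 5.34 ± 1.9 in sham P56 and 2.82 ± 0.88 in MI P56 and did not pass. Of 10 genes of iron handling 1 passed, Hmox1 (heme oxygenase, 1.55 higher), and 9 did not.

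Slc2a1 (chr4:119108711-119137983), the glucose carrier whose promoter is printed above, read 2.42, 0.828, 3.87 and 3.22 in sham P56 and 9.8, 9.9 and 5.18 in MI P56. Every MI library lay above every sham library, with a ratio of means of 3.21 and a difference of 1.42 ± 0.37 (SE; limma adjusted p = 0.0367). Of the 14 tested genes of glycolysis, only Ldha, which interconverts pyruvate and lactate, passed, at 1.52 higher. The call of Slc2a1 ended without MI P56 library 1, 2 or 3 (adjusted p = 0.127, 0.13 and 0.0528), sham P56 library 1 (0.0586) or MI P1 library 1 or 3 (0.0548 and 0.0501), and edgeR gave 0.0604.

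Slc28a2 (chr2:122426477-122461137) read 9.82, 10.6, 9.28 and 19.2 in sham P56 and 3.08, 5.13 and 3 in MI P56. The difference of -1.45 ± 0.35 (SE) had a limma adjusted p of 0.0255, and the sham mean was 3.28 times the MI mean. Every sham P56 library but only MI P56 library 2 reached 5, so a lower value after MI was partly built into its choice. The call of Slc28a2 ended without MI P56 library 1 or 3 (adjusted p = 0.0876 and 0.137) or sham P56 library 5 (0.0815), and edgeR gave 0.0645. The other low-p lower members were Slc25a23, a calcium-regulated carrier of ATP-Mg and phosphate (-1.03, adjusted p = 0.0625), Slc12a7 (-1.31, 0.0648), Slc25a27, a mitochondrial carrier (-1.28, 0.125), and Slc45a3 (-0.97, 0.128). For Slc12a7 and Slc25a27 only the sham P56 mean was at 5 or more, so this direction was partly built into their choice. In the same comparison 11 of 12 cardiomyocyte genes and 4 of 14 blood endothelial genes were lower after MI, and 4 of 10 fibroblast genes and 2 of the 6 tested macrophage genes were higher. Of 7 tested pericyte and smooth muscle genes Acta2 was higher and Rgs5 and Abcc9 were lower, and of 3 tested erythroid genes Hbb-bs was higher. Their part in the members' differences was not tested.

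**Figure D3:**
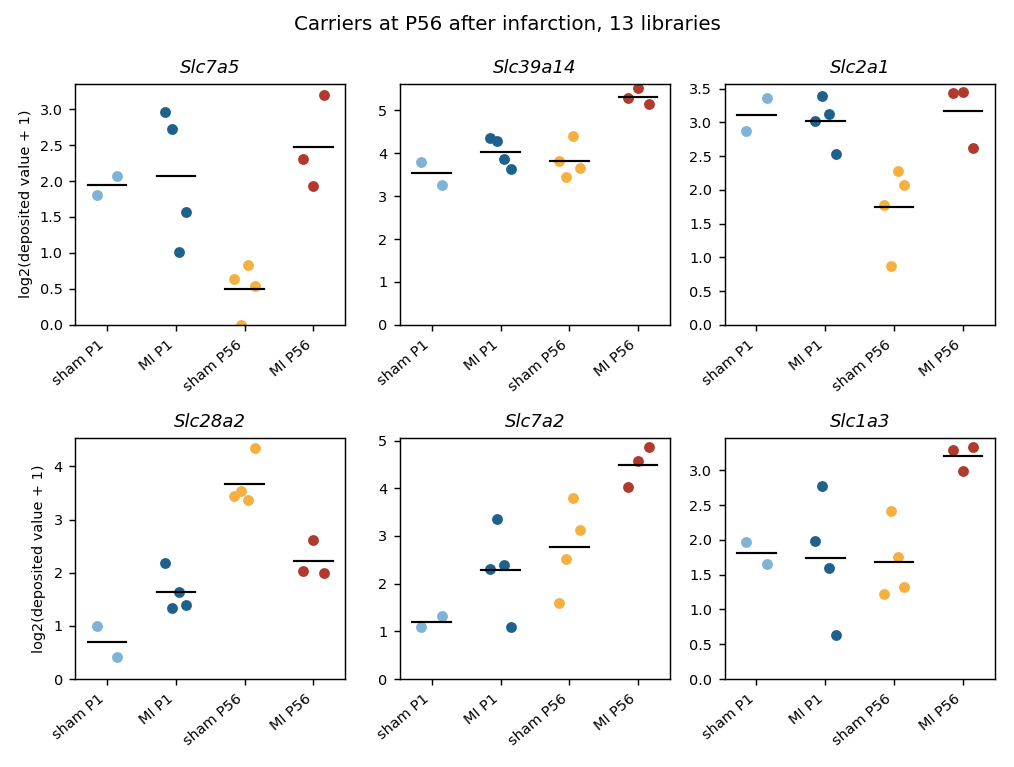
Values of 6 members as log2(deposited value + 1) in the 13 libraries, 1 point a library, with bars at the group means. In Slc7a5, Slc39a14, Slc2a1, Slc7a2 and Slc1a3 all 3 MI P56 libraries lie above the 4 sham P56 libraries, and in Slc28a2 they lie below.

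The count of 4 became 7 without MI P1 library 2 or 5 or sham P56 library 2 or 3, and 1 without MI P56 library 3. With the 3 low-detection libraries added, no member was called at P56, beside 0.174% of 13243 genes. The values of these libraries touch this result directly: MI P56 library 5 read Slc39a14 at 8.63, which is 2 reads, and Slc28a2 at 4.31, which is 1 read.

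The same question in the newborn heart gave no call. At P1, 0 of 106 members and 0.0% of all genes tested passed in limma, and the share among genes meeting the level rule was also 0.0%. At an unadjusted p under 0.05 there were 4 members, and edgeR and DESeq2 called 0. That is 3.77% of members, beside 3.72% of all genes and 3.87% of genes meeting the level rule. Those 4 were Slc10a1 (-1.26), Slc4a4 (1.02), Slc28a2 (0.94) and Slc41a3 (1.02). Slc10a1, known for bile acid uptake in the liver, read 5.95 and 6.85 in sham P1 and 1.32, 1.85, 2.22 and 3.26 in MI P1, but it became a member through its sham P1 values, so a lower value in MI P1 was built into its choice. The sodium bicarbonate cotransporter gene Slc4a4 read 11.6 ± 5.2 (SD, n = 2) in sham P1 and 24.2 ± 7.7 (SD, n = 4) in MI P1. With 2 sham P1 libraries, the precision of this comparison is lower than at P56.

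The difference between the MI responses at the 2 ages was tested directly. No member passed in limma, beside 0.483% of all genes and 0.774% of genes meeting the level rule. At an unadjusted p under 0.05 were 15 members, 14.2%, beside 10.9% of all genes and 13.4% of genes meeting the level rule. edgeR called 0 members and DESeq2 called 1. Slc28a2 came nearest, at -2.39 ± 0.53 (SE; limma adjusted p = 0.0502): after MI it differed by 0.94 at P1 and by -1.45 at P56. Its high sham P56 values helped to make it a member, so this direction was partly built into its choice, in every setting. Slc10a1 followed at 1.91 (0.0949), a direction that its choice through the sham P1 values fixes. For Slc7a5 the difference of responses was 1.85 (0.268) and for Slc2a1 1.51 (0.268). Slc28a2 was the member that DESeq2 called (adjusted p = 0.000465), and it also passed with a value of at least 5 in 4 libraries (0.0439), a pseudocount of 0.25 (0.0476), median-of-ratios scaling (0.0481), quantile normalization (0.0404), without sham P56 library 2 (0.0185) and without MI P56 library 2 (0.049). For Slc28a2 the result thus depended on the setting, and for the other members a difference of the responses between ages was not shown.

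More members were called between the ages, which differ in pooling, digestion, surgery and sex as well. In sham hearts 5 members were higher and 13 lower at P56 than at P1, and 88 did not pass. Of all genes 5.89% were higher and 7.28% lower, and of genes meeting the level rule 7.41% and 9.13%. The members' 18 calls make 17%, close to the 16.5% of genes meeting the level rule. After MI 5 were higher and 8 lower, 12.3% in all, beside 5.35% of all genes and 7.11% of those meeting the level rule. By direction, 2.09% of all genes were higher and 3.26% lower, and 2.72% and 4.39% of those meeting the level rule. The 2 comparisons share no library. They had 10 members in common, 55.6% of the sham calls and 76.9% of the MI calls, all in the same direction: 8 lower at P56 and 2 higher. Over all genes tested the 434 shared calls were 25.3% and 62.3%, and over genes meeting the level rule 28.1% and 65.3%, and whether the members differ from these was not tested.

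**Figure D4:**
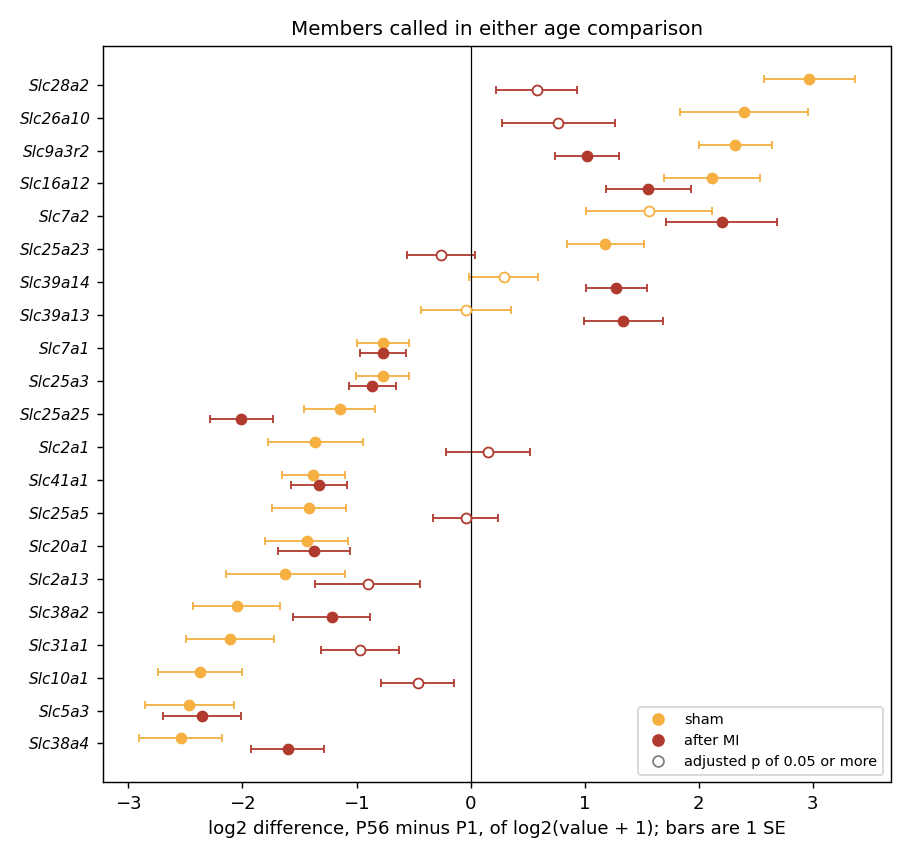
Difference of log2(value + 1) between P56 and P1 in sham (orange) and after MI (red) for the 21 members called in either comparison, with bars of 1 SE and open points where the adjusted p was 0.05 or more. Slc5a3, Slc38a4 and Slc38a2 lie on the lower side in both, and Slc16a12 and Slc9a3r2 on the higher side in both.

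Carriers of amino acids and of the osmolyte myo-inositol were among the lower ones. Slc38a2 read 299 and 191 in sham P1, 181, 176, 140 and 314 in MI P1, 109, 30.6, 52 and 60.4 in sham P56 and 102, 68.5 and 80.7 in MI P56. Every P1 library lay above every P56 library, and the differences were -2.05 ± 0.38 in sham and -1.22 ± 0.33 after MI (SE; limma adjusted p = 0.00112 and 0.0369). Its relative Slc38a4 read 37.7 and 45.2, then 29.5 to 35 in MI P1, 3.62 to 14.3 in sham P56 and 9.38 to 10.9 in MI P56, again without overlap, at -2.54 and -1.60. Slc7a1 read 35 to 46.5 in the 6 neonatal libraries and 19 to 27.8 in the 7 adult ones, at -0.76 and -0.77. Of the 16 amino acid carriers 3 were lower in each age comparison, and Slc7a2 was higher at P56 after MI (2.20, limma adjusted p = 0.0108) and differed by 1.56 in sham, where it did not pass.

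Slc5a3, which takes up myo-inositol with sodium, read 98.6 and 67.3 in sham P1, 62.9, 50.4, 57.7 and 145 in MI P1, 11.5, 24.3, 9.61 and 13.9 in sham P56 and 12.4, 10.4 and 18.1 in MI P56. The adult values lay well under all neonatal ones, at -2.46 ± 0.39 in sham and -2.35 ± 0.34 after MI (SE; limma adjusted p = 0.000273 and 0.000335). Its exons share 159 bases with Mrps6 on the same strand. Slc2a13, a proton-coupled myo-inositol carrier, was lower in sham (-1.62, adjusted p = 0.0438) with 8.23 in sham P56 library 1 and 0.336 in library 2, and its call held in only 1 of the 13 fits that left out a library. Slc6a6, the taurine carrier, did not pass in either comparison (0.50 and -0.09).

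Among ion and metal carriers, the phosphate carrier gene Slc20a1 read 70.5 and 44.8 in sham P1, 27.4 to 86.4 in MI P1, 15.1 to 27.4 in sham P56 and 13.8 to 19.8 in MI P56. It was lower at P56 by -1.44 in sham and by -1.37 after MI. Slc41a1, a magnesium transporter, read 30.1 to 47.5 in the neonatal libraries and 11.3 to 20.7 in the adult ones, at -1.38 and -1.33. The copper importer gene Slc31a1 read 35.8 and 48.1 in sham P1, 34 to 46.4 in MI P1, 9.28, 3.29, 12.8 and 14.5 in sham P56 and 16.2, 16.5 and 25.6 in MI P56. It passed in sham (-2.11 ± 0.39 SE; limma adjusted p = 0.00103) and not after MI (-0.97). Slc31a2, the other copper carrier, pointed the other way in sham (0.84) and did not pass. Slc39a13 and Slc39a14 were higher at P56 after MI (1.34 and 1.28) and differed by -0.04 and 0.29 in sham.

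Of the 17 mitochondrial carriers, 3 were lower and 1 higher in sham, and 2 were lower after MI. The phosphate carrier gene Slc25a3 read 84.7 to 105 in the neonatal libraries and 41.3 to 74 in the adult ones, at -0.77 and -0.86. Slc25a25, a calcium-regulated carrier of ATP-Mg and phosphate, read 17.7 and 9.71 in sham P1, 14.4 to 21.5 in MI P1, 4.25 to 6.41 in sham P56 and 3.13 to 3.7 in MI P56. It differed by -1.15 in sham and by -2.01 after MI. Its relative Slc25a23 was higher at P56 in sham (1.18). Of the ADP/ATP carriers, Slc25a5 was lower in sham (-1.42), from 13.2 and 14.2 to between 3.6 and 6.43, while Slc25a4 did not pass (-0.14). Slc25a3, Slc25a4 and Slc25a5 belong to a family of similar sequences, and how reads that fit several copies were counted is not given in the sources used here.

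Among the members that were higher at P56, Slc9a3r2, a scaffold that binds membrane carriers and receptors, read 14.2 and 11.4 in sham P1, 12.5 to 27.2 in MI P1, 61.8, 54.5, 59.9 and 104 in sham P56 and 41.2, 52.3 and 29.7 in MI P56. It was higher by 2.32 ± 0.32 in sham and by 1.02 ± 0.28 after MI (SE; limma adjusted p = 8.1e-05 and 0.0381). Slc16a12, which carries creatine, read 1.99 and 3.23 in sham P1, 0.997 to 2.8 in MI P1, 10.2 to 27.2 in sham P56 and 5.16 to 11.5 in MI P56, at 2.11 and 1.56. No P1 library here reached 5 and every P56 library did. Slc16a12 thus became a member through its P56 values, and a higher value at P56 was built into its choice. Slc28a2 read 0.991 and 0.326 in sham P1, and with 9.28 to 19.2 in sham P56 it had the largest difference of any member in sham (2.97 ± 0.40 SE; limma adjusted p = 6.43e-05), while after MI it differed by 0.58 and did not pass. Its sham P56 values all met the level of 5 and these sham P1 values did not. A higher value in sham P56 was thus partly built into the choice of Slc28a2. Slc26a10 was higher in sham (2.40), but only its sham P56 mean, 13.9, was at 5 or more, so this direction was partly built in as well. Of the exon bases of Slc26a10, 17.8% overlap B4galnt1 on the opposite strand. Counting by strand is not stated, so reads of these genes cannot be told apart.

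Slc10a1 read 5.95 and 6.85 in sham P1 and 0.0672, 0.233, 0.705 and 0.851 in sham P56, the first of which is 3 reads. The difference was -2.37 ± 0.37 (SE; limma adjusted p = 0.000228), but this gene became a member through its sham P1 values, so a lower value elsewhere was built into its choice. Slc2a1 was lower at P56 in sham (-1.36) and not called after MI (0.15). The comparison of age in sham and that of MI at P56 share the sham P56 libraries, so the values of Slc2a1 and Slc28a2 in both are not independent.

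**Figure D5:**
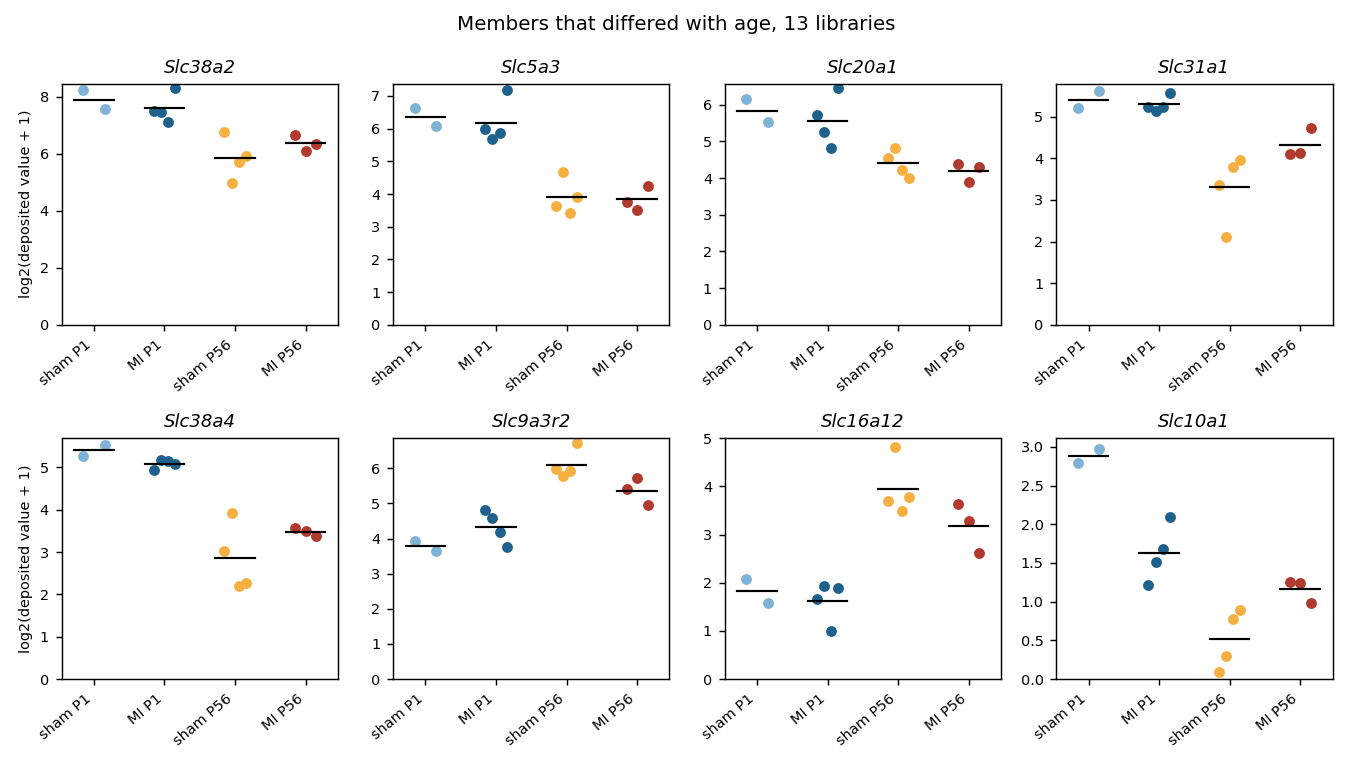
Values of 8 members as log2(deposited value + 1) in the 13 libraries, 1 point a library, with bars at the group means. The P1 libraries lie above the P56 libraries in Slc38a2, Slc5a3, Slc31a1 and Slc38a4 and below them in Slc9a3r2 and Slc16a12. In Slc20a1 the lowest MI P1 and the highest sham P56 library both read 27.4.

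In the genes beside the members, 11 of 12 cardiomyocyte genes, 6 of 14 blood endothelial genes and 3 of 7 tested pericyte and smooth muscle genes were higher at P56 in sham, as was Itga9 of the lymphatic list, and 4 of 10 fibroblast genes and the macrophage gene Cd68 were lower and 1 fibroblast gene was higher. After MI limma called Ttn (cardiomyocyte), Gsn (fibroblast) and Itgam (macrophage) higher and Wt1 (mesothelial) lower, and no other marker. Of the 4 tested organic anion carriers named Slco, a related family, Slco2b1 was higher at P56 in sham and after MI (3.35 and 1.64) and Slco5a1 was lower in sham. Of the 10 tested ion and metal pumps, 4 were higher in sham, Atp2a2, the calcium pump of the sarcoplasmic reticulum, among them (1.53), and none passed after MI. Of the 9 tested genes of the amino acid response, 4 were lower in sham (Atf4, Psat1, Ddit3 and Mthfd2) and 2 after MI (Atf4 and Ddit3). The part of other cells in the members' age differences was not tested.

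The age calls in sham rest on 2 neonatal libraries. In sham P1 library 5, 47.3% of the reads fell on the single gene Uqcrc1, against 0.232% in library 3. The effect of this on the calls was not tested. A fit without either of them has 1 library in that group, whose spread is assumed to be that of the other groups, so it is a weak check. Without sham P1 library 3, 9 members were called and without library 5, 10 were, and Slc38a2, Slc38a4, Slc5a3, Slc31a1, Slc10a1, Slc9a3r2 and Slc28a2 kept their call in every fit that left out 1 library. Without library 3 the adjusted p was 0.182 for Slc20a1, 0.0843 for Slc41a1, 0.32 for Slc25a25, 0.259 for Slc25a3, 0.216 for Slc7a1, 0.127 for Slc25a23, 0.0566 for Slc25a5, 0.095 for Slc2a1 and 0.186 for Slc2a13. Without library 5 it was 0.0604 for Slc16a12, 0.114 for Slc26a10, 0.108 for Slc25a3, 0.138 for Slc7a1, 0.182 for Slc25a23, 0.0867 for Slc25a5, 0.32 for Slc2a1 and 0.239 for Slc2a13. The calls of Slc25a3 and Slc7a1 also ended without sham P56 library 1, 3 or 5 (adjusted p from 0.0542 to 0.087), that of Slc25a23 without library 1 (0.0604), and that of Slc2a13 in 10 further fits (0.0528 or more). edgeR did not call Slc2a1 (0.051) or Slc2a13 (0.19).

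After MI, Slc5a3, Slc25a25, Slc38a4 and Slc41a1 kept their call in every such fit, and 4 members were called without MI P56 library 2. Without that library the adjusted p was 0.178 for Slc38a2, 0.216 for Slc9a3r2, 0.101 for Slc25a3, 0.0933 for Slc20a1, 0.105 for Slc39a13, 0.163 for Slc7a1, 0.0568 for Slc39a14, 0.08 for Slc16a12 and 0.0557 for Slc7a2. Without MI P56 library 1 the calls of Slc38a2, Slc9a3r2, Slc39a13 and Slc16a12 ended (0.0603, 0.111, 0.0994 and 0.096), and without library 3 those of Slc38a2, Slc39a13, Slc7a1 and Slc7a2 (0.0976, 0.0628, 0.071 and 0.056). Leaving out single MI P1 libraries ended those of Slc38a2 (libraries 1, 2 and 5), Slc9a3r2 (2, 3 and 5), Slc39a13 (3 and 5), Slc7a1 (1, 2 and 3) and Slc16a12 (3), with adjusted p from 0.0544 to 0.123. edgeR did not call Slc38a2 (0.0709), Slc9a3r2 (0.0621) or Slc39a13 (0.0751) there. With all 16 libraries 10 members were called in sham, beside 3.91% of genes, and 0 after MI, beside 0.106%.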

How the data were processed

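RNA sequencing of sorted cells from 16 libraries was used. The tools named, per the submitters' processing notes, are STAR, HTSeq, Trimmomatic and edgeR, with genome mm10 (GRCm38); versions and counting options are not given in the sources used here. The deposited values, named CPM by the authors, are a signal: within 0.01 read 100% of them were whole multiples of what 1 read is worth in their library, so read counts were recovered. The design had assumed plain CPM.

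Members and lists were chosen with earlier results of these data known. Genes with a value of 1 or more in 4 or more libraries were kept (13033), transformed as log2(value + 1), which understates changes of low genes, and fitted with limma-trend (limma 3.58.1, R 4.3.3) to the 4 groups of 13 libraries, leaving out the 3 with fewer than 10000 genes detected. Calls had a Benjamini-Hochberg adjusted p under 0.05. Nothing says that the libraries of a group came from separate animals or pools, so p-values measure the spread between these libraries, which may be technical. The method was run on simulated data for some of the comparisons, with a fixed spread and changes larger than most reported here. That run does not speak for the calls made here. Alternatives were DESeq2 1.42.0 and the quasi-likelihood test of edgeR 4.0.16 on recovered reads, all 16 libraries, other filters, pseudocounts and scalings, only the groups compared, a replicate block and each library left out.

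Levels between genes were divided by GENCODE M21 exon length, known for 106 of 106 members, of which 93 had the same coordinates there. Positions are those of the deposited table (GRCm38). RefSeq promoter windows (GRCm38.p6) were found for 80 of 106 members. Genes named in the text are, for each comparison and direction, up to 12 called members by size of change, filled up to 5 by the smallest p, with members of textbook interest and the highest member of each class; 1 gene that this rule names is not reported here. A few others, such as those at the ends of the order of levels, were chosen after their values were seen.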

Additional observations from a re-analysis of the deposited data

Results flagged for a closer look

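In the 44 sets of 4 libraries formed by the 22 called members in MI P1 and sham P56, 4 held 1 library far from the other 3, by Dixon's test at the 95% level. Chance gives about 1 in 20. Slc16a12 read 27.2 in sham P56 library 2, against 10.2 to 12.7 in the others. Slc28a2 read 19.2 in sham P56 library 5, against 9.28 to 10.6. Slc9a3r2 read 104 in the same library, against 54.5 to 61.8. Slc5a3 read 145 in MI P1 library 5, against 50.4 to 62.9.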

How the results depend on the processing

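The number of members called for MI against sham at P56 (4) was 0 with all 16 libraries, 7 with a pseudocount of 4, 9 with quantile normalization, 2 with edgeR, 10 with DESeq2 and 1 with only the groups compared, and 1 to 7 with single libraries left out. The difference of the MI responses (0) became 1 with a value of at least 5 in 4 libraries, a pseudocount of 0.25, median-of-ratios scaling, quantile normalization and DESeq2, and 0 to 1 with single libraries left out. For P56 against P1 in sham (18) it was 10 with all 16 libraries, 10 with only the groups compared and 9 to 23 with single libraries left out. After MI (13) it was 0 with all 16 libraries, 20 with only the groups compared and 4 to 19 with single libraries left out; the cause was not tested. MI against sham at P1 stayed at 0 in all of these. With all 16 libraries 4 single values changed sign: Slc2a1 (0.195) and Slc2a13 (0.00) for age in sham, and Slc17a5 (0.85) and Slc25a32 (0.25) for MI at P1. That fit moved the median of all genes by up to -0.50 (the difference of the MI responses) on the log2 scale. The replicate block, a number that does not pair the libraries (same-numbered deviations correlated from -0.321 to 0.136 in 15 pairs, 1 of them over 0.1), gave 3, 0, 0, 12 and 12 calls in the order of the comparisons. In the 3 libraries left out, 1 read can be worth over 4 units, so a low member is not measurable there.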

Other observations

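Carriers of nucleotide sugars supply the Golgi for glycosylation. Of the 15 members that carry nucleosides or nucleotide sugars, 1 was called for MI at P56, 1 for age in sham and none for age after MI in limma, and each call was Slc28a2. The CMP-sialic acid carrier gene Slc35a1 read 8.75 ± 6.3 (SD, n = 4) in sham P56 and 11.1 ± 6.4 (SD, n = 3) in MI P56. None of the 7 bicarbonate and proton exchangers was called by limma in any comparison, which says little, since at most 13.2% of all genes were called in any of them. In all, 84 of the 106 members were called in no comparison.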
